A study of Mus musculus with 12 samples.

Results

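CTCF sites at 37 genes of heart muscle were examined in the brain, heart and lung of mouse embryos. The genes were chosen as known genes of the cardiac contractile apparatus, calcium handling, conduction, natriuretic peptides and cardiac transcription. A CTCF peak belonged to a gene when its summit lay in the gene body or within 20 kb of it. Peaks of the 6 lists that shared at least 1 bp were merged into sites, which gave 150 sites at these genes of 56248 sites in all. At least 1 peak was found at 36 of the 37 genes, and Nppb had none in any list.

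CTCF holds a row of zinc fingers, of which the central ones read a core motif and others touch an upstream motif 5′ of the core where it is present. Bound CTCF halts the cohesin complex, which extrudes chromatin loops, and so helps to set which promoters and distant elements share a loop. The genes examined encode the thick and thin filaments of the sarcomere, the proteins that anchor them, the channels and pumps that move calcium in each beat, and the transcription factors that switch these genes on in cardiac muscle cells.

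The embryos were taken at E18.5, late in gestation, on a C57BL/6 N background, and were either wild type or homozygous for R567W, a CTCF substitution introduced with CRISPR/Cas9. The mutation was in the germ line, so every tissue carried it. CTCF ChIP-seq with added HEK293T chromatin, from a human embryonic kidney line, was made from 1 library per tissue and genotype, with 6 ChIP and 6 input libraries. The question was where the cardiac genes are occupied in heart compared with brain and lung, and which of these sites are still listed in the mutant. The sources used here do not say how many embryos gave each library. With 1 library a group, no test was possible between the genotypes of a tissue, and the intervals given below cover counting error only.

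The lists held between 11515 peak regions, in mutant heart, and 44386, in wild-type lung. Each region is described by its summit pileup, the number of fragments covering the summit. The genome background, which scales with depth, lay between 1.42 and 2.02 fragments, and a level below means the pileup divided by this background. The lowest listed pileup was between 7 and 9 in the 6 lists. A site that is not listed is therefore one that missed the peak caller's threshold and not one shown to be unbound. Each library came from tissue of many cell types, so fewer cells of a type and less CTCF per cell cannot be told apart. Peak lists hold no expression, so the tissue labels were not checked against marker genes.

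The sites at the cardiac genes held between 53 peak regions, in mutant heart, and 117, in wild-type lung. Of the 150 sites, 91 lay in an intron of some gene, 26 within 1 kb of a start site, 8 in an exon and 25 between genes. Many sites lay in neighbours of the cardiac gene, such as Ccdc63 beside Myl2 and Nisch beside Tnnc1. The peak farthest from its gene within the limit was 18.7 kb from Atp2a2 with a pileup of 18 in wild-type lung, and the nearest beyond it was 20.02 kb from Des with a pileup of 16 in wild-type brain.

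The core motif, sought on both strands with a position matrix up to 100 bp from the summit, was found at 126 of the 150 sites, or 84%, against 7.33% of windows placed beside the same summits. Over all sites of the series it was found at 84.6%. An upstream motif, TGCAGTNCC with at most 2 mismatches in the 30 bp 5′ of the core motif and on its strand, was called at 33 of these 126 sites, or 26.2%, and at 26.2% of all sites with a core motif. The mirrored window on the 3′ side held it at 11.1% of the cardiac sites and 13.3% of all.

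The sequences below show how these sites are built. Each is written 5′ to 3′ along the strand of the core motif, from GRCm38, with 30 bases before the core motif. The core motif and a called upstream motif are in capitals. The first set has the 5 sites that were listed in all 6 libraries with the highest mean rank of pileup.
Myl3 site 5, chr9:110781588-110781636, minus strand: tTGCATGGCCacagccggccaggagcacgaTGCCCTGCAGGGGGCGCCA
Tpm1 site 2, chr9:67044100-67044148, minus strand: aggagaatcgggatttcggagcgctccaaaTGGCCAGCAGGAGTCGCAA
Ldb3 site 2, chr14:34549572-34549620, minus strand: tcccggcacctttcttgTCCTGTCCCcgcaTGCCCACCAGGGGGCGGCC
Mybpc3 site 1, chr2:91101581-91101629, minus strand: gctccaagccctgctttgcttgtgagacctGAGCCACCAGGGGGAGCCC
Myl2 site 10, chr5:122131855-122131903, plus strand: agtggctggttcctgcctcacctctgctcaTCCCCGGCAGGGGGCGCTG

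The second set has sites that were listed in the wild type of all 3 tissues and in mutant brain and lung, and that were missing from mutant heart alone.
Myl7 site 3, chr11:5912820-5912868, minus strand: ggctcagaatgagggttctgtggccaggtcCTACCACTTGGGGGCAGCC
Cacna1c site 8, chr6:118923026-118923074, plus strand: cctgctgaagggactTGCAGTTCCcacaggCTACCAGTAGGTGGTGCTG
Ttn site 5, chr2:76969112-76969160, minus strand: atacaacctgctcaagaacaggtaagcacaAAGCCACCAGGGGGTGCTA
Myl2 site 2, chr5:122091253-122091301, minus strand: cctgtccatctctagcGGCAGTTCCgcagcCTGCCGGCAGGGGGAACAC
Tnni3 site 5, chr7:4524401-4524449, minus strand: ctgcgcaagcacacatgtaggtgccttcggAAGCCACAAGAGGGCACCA
Gja1 site 1, chr10:56369272-56369320, plus strand: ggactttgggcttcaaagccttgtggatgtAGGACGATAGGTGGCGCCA

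The third set has sites that were listed in wild-type heart and in neither wild-type brain nor wild-type lung.
Ldb3 site 4, chr14:34574251-34574299, plus strand: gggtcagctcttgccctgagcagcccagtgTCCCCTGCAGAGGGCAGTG
Ldb3 site 5, chr14:34596036-34596084, minus strand: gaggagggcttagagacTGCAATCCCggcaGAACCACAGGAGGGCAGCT
Hand2 site 3, chr8:57340999-57341047, minus strand: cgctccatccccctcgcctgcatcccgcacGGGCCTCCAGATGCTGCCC

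The last set has the Ryr2 promoter site and a site downstream of Gata4 that is described below.
Ryr2 site 7, chr13:12106977-12107025, minus strand: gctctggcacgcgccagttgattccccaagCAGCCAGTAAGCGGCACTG
Gata4 site 3, chr14:63195960-63196008, minus strand: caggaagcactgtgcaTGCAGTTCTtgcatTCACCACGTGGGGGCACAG

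The upstream motif of Cacna1c site 8 matched the consensus without a mismatch, and those of Myl2 site 2, Ldb3 site 5 and Gata4 site 3 had 1 mismatch. In these 4 sequences the motif ended 6, 5, 4 and 5 bp before the core motif. The calls marked in Myl3 site 5 and Ldb3 site 2 had 2 mismatches and ended 20 and 4 bp before it. Among the 33 cardiac sites with an upstream call, 19 had at most 1 mismatch, and all 19 ended 4 to 6 bp before the core motif. The mirrored window gave 2 such calls. Over all sites of the series, 91.8% of 5371 calls with at most 1 mismatch had this spacing.

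Sites at the cardiac genes were more often listed in heart than the genome as a whole. Of the 139 sites with a peak in at least 1 wild-type list, 79, or 56.8% (Wilson 95% interval 48.5 to 64.8%), had a wild-type heart peak, against 42.8% of all such sites. A brain peak was present at 102, or 73.4% (65.5 to 80.0%), against 72.7% of all, and a lung peak at 116, or 83.5% (76.4 to 88.7%), against 89.4% of all. Local background was raised in the wild-type lung list, and its part in the lung share was not tested. With all lists cut to equal length the heart share was 83.6% (71.7 to 91.1%), an interval that includes the 75.3% of all sites. All 3 wild-type tissues were listed at 64 sites, or 46.0% (38 to 54.3%), against 40% of all. By gene, 33 of the 37 cardiac genes had a wild-type heart peak (89.2%, 75.3 to 95.7%), compared with 63.5% of protein-coding genes. The same number had a wild-type brain peak, against 74.6%, and a wild-type lung peak, against 78.4%, so the excess by gene was not limited to heart. The median cardiac gene was 23.9 kb long and the median protein-coding gene 17.4 kb, and the part of length in this difference was not tested.

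**Figure D1:**
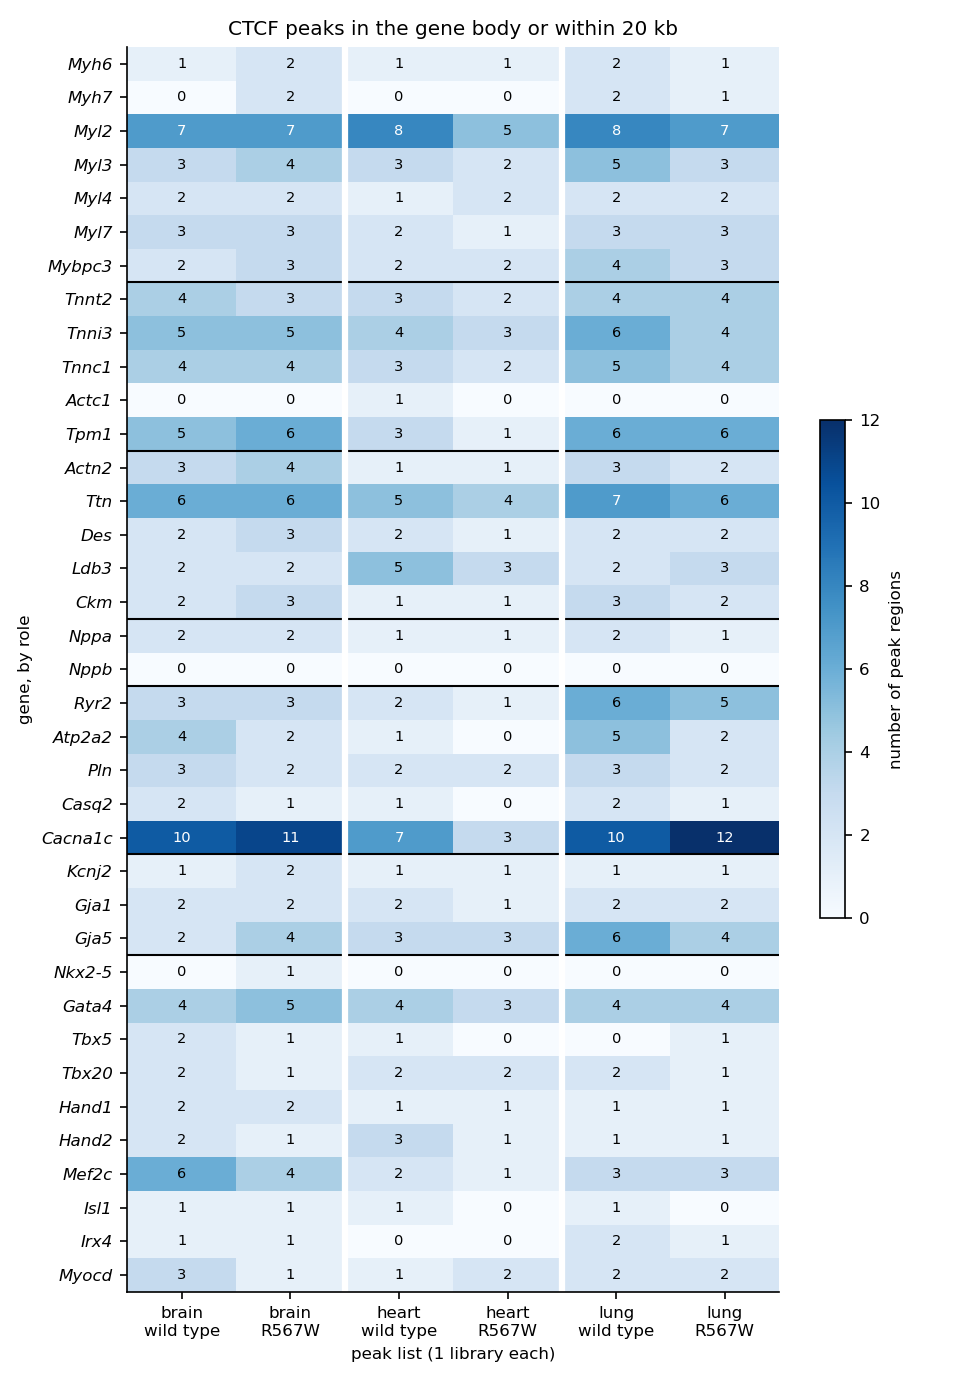
Number of CTCF peak regions (shade and digit) in the gene body or within 20 kb of each of 37 cardiac genes (rows, by role) in each of the 6 peak lists (columns, 1 library each). Cacna1c and Myl2 hold the most peaks, and the mutant heart column is the palest.

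The plot of peaks per gene shows that a few genes held many sites. Cacna1c, which encodes the pore of the L-type calcium channel, had 16 sites along 609179 bp, and Myl2, the ventricular regulatory light chain, had 10 sites in and around only 12522 bp. The median gene had 3 sites.

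Heart peaks that neither wild-type brain nor wild-type lung shared were found at 10 of the 139 wild-type sites, or 7.19% (3.95 to 12.7%), against 0.675% of all sites. They lay at 6 genes, or 16.2% of the 37 (7.65 to 31.1%), where 1.91% of protein-coding genes had such a site. The genes were Ldb3 with 3 sites, Hand2 and Myl2 with 2 each, and Actc1, Cacna1c and Gata4 with 1 each. At 36 other cardiac genes, listed separately and including Myom1, Csrp3 and Trdn, 5 of 144 wild-type sites were of this kind, or 3.47% (1.49 to 7.87%).

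These peaks were mostly low. Ldb3 site 4 was the highest, with a pileup of 31 in wild-type heart and 35 in mutant heart, and it was also listed in mutant lung at 23. Ldb3 encodes a Z-disc protein also named Cypher, and this site lay in its intron, 14.2 kb from the nearest annotated start. The other 9 had wild-type heart pileups between 9, at Actc1, and 22, at Ldb3 site 5. None of those 9 was listed in mutant heart, and Cacna1c site 2 alone among them was listed in mutant brain, at 16, and mutant lung, at 19. Whether the raised local background of wild-type lung kept sites such as these off that list was not tested. The core motif was found at 6 of the 10 sites. Among all 330 such sites of the series the core motif was found at 49.7%, the median pileup was 11 and 7 were also listed in mutant heart.

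Where a site was listed in both wild-type heart and another wild-type tissue, its level was compared after subtracting the median log2 ratio of all sites listed in both, which was -1.27 for heart against brain and -2.26 for heart against lung. The median of the cardiac sites was then 0.076 against brain (order-statistic 95% interval -0.12 to 0.39, n = 66 sites) and -0.0023 against lung (-0.13 to 0.13, n = 67). The spread was wider against brain: the upper quartile was 0.83 at the cardiac sites and 0.41 over all sites. A heart level over 2 times that of brain on this scale was found at 11 of 66 sites, or 16.7% (9.57 to 27.4%), against 7.29% of all, and under 0.5 times at 1 site, Tpm1 site 3, or 1.52%, against 1.62% of all. Against lung, 3 of 67 sites were over 2 times, or 4.48%, against 4.81% of all, and 0 were under 0.5 times, against 0.636% of all.

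The site with the highest heart level relative to brain was Myl3 site 3, in an intron of the gene of the ventricular essential light chain, with wild-type pileups of 15, 35 and 113 for brain, heart and lung and a centred log2 difference of 2.46. Myl7 site 3, beside the atrial regulatory light chain, had 24, 39 and 118 (1.94). Hand2 site 1, in the antisense gene Hand2os1 beside a transcription factor of the right ventricle, had 20, 32 and 31 (1.92), and it was also the highest against lung, at 2.12. Tnnc1 site 6, at the promoter of the neighbouring Sema3g, had 25, 37 and 123 (1.81). At Myl3, Myl7 and Tnnc1 heart stood above brain but, at 0.38, 0.48 and 0.34, little above lung, whereas at Hand2 it stood above both.

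**Figure D2:**
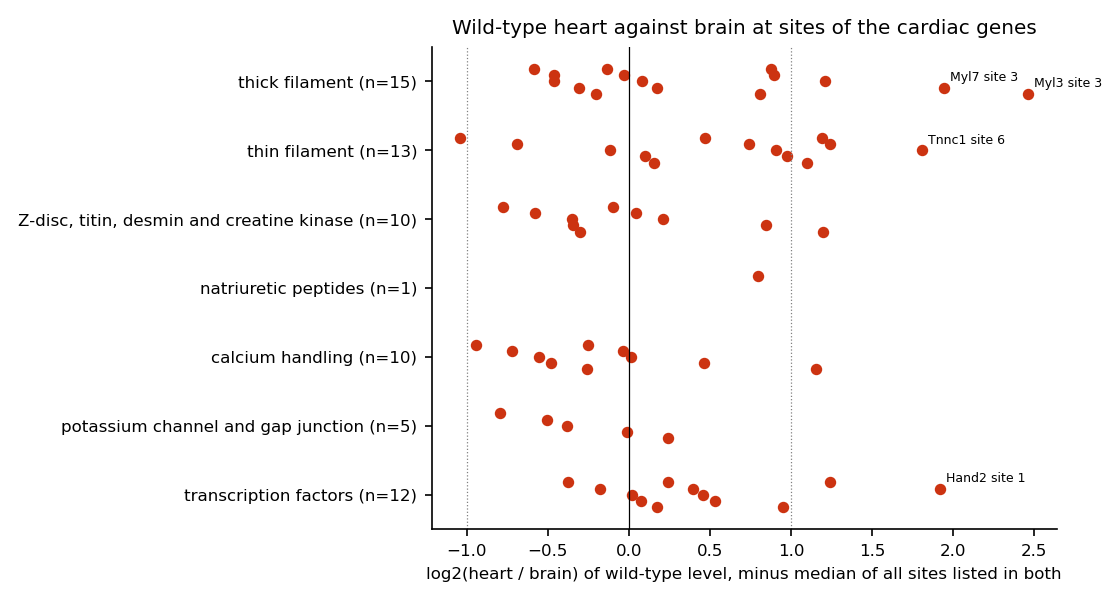
Log2 ratio of wild-type heart to brain level, minus the median of all sites listed in both (horizontal axis), at 66 sites of the cardiac genes, grouped by role (vertical axis). Each point is a site, dotted lines mark 2-fold differences, and 4 sites above 1.5 are named.

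In the plot of heart against brain, 7 of the 11 sites beyond the right-hand dotted line belong to genes of the thick and thin filaments, which gave 28 of the 66 points, and none to the potassium channel and gap junction genes. The groups overlap widely.

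Between genotypes, peak numbers at the cardiac genes followed the same order as in the genome. In brain 103 wild-type and 106 mutant peaks were listed, a ratio of 1.03. Heart had 80 and 53, a ratio of 0.663, and lung 117 and 97, a ratio of 0.829. Over all regions these ratios were 1.07, 0.547 and 0.732. The mean log2 ratio at the cardiac genes was -0.27 ± 0.32 (SD, n = 3 tissues), p = 0.5 when the signs of the tissues were flipped in every way (exact permutation, two-sided), where 0.25 is the smallest possible p. With lists cut to equal length it was 0.10, of opposite sign.

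Site by site, 16 of 102 wild-type brain sites had no mutant brain peak (15.7%, 9.89 to 24.0%), against 18.7% of all. In heart 29 of 79 had none (36.7%, 26.9 to 47.7%), against 49.3% of all. In lung 29 of 116 had none (25%, 18.0 to 33.6%), against 33.1% of all. The retained share for brain, heart and lung was thus 84.3%, 63.3% and 75%, compared with 81.3%, 50.7% and 66.9% of the sites elsewhere. The cardiac sites exceeded the others by 2.98, 12.6 and 8.12 percentage points, with a mean of 7.90 ± 4.82 (SD, n = 3 tissues) and p = 0.25 in the same exact test, the smallest it can give. The 3 differences are not independent, as 64 of the 139 wild-type cardiac sites were listed in all 3 tissues. With lists of equal length the brain share was 70.3% against 78.1% of other sites, which turns the direction there, and the mean difference was 3.33 points.

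**Figure D3:**
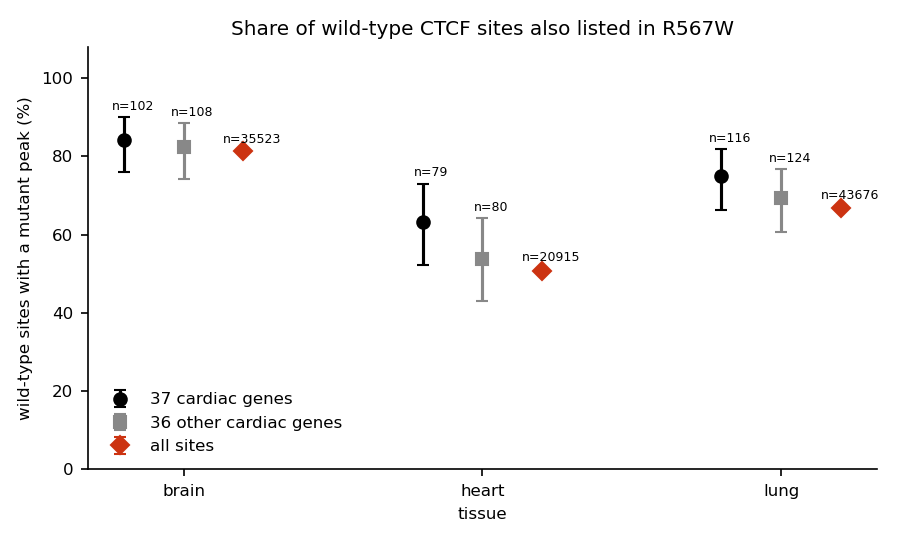
Share of wild-type CTCF sites with a mutant peak in the same tissue (vertical axis, percent), for the 37 cardiac genes, 36 other cardiac genes and all sites, with Wilson 95% intervals (bars, counting error only) and the number of wild-type sites (n). Heart is lowest in each set, and the cardiac gene interval in heart, 52.3 to 73.1%, lies above the share of all sites.

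Peak strength differed in the same direction. The median cardiac site stood at percentile 54.2 of wild-type pileup for brain, 57.0 for heart and 63.0 for lung. With the other sites weighted to the same deciles of pileup, their retained shares were 81.6%, 51.9% and 73.0%, and the mean difference was 5.39 points. At the 36 other cardiac genes, 82.4% (74.2 to 88.4%) of brain sites, 53.8% (42.9 to 64.3%) of heart sites and 69.4% (60.8 to 76.8%) of lung sites were retained. For these genes the heart share was closer to that of all sites.

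Sites without a mutant peak were the weaker ones in each tissue. Their median wild-type pileup for brain, heart and lung was 16.5, 18 and 24, whereas retained sites had medians of 57.5, 35 and 116. The ranges overlapped: in heart, sites without a mutant peak ran from 9 to 39 and retained sites from 18 to 78.

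All 6 lists held 45 of the 150 sites (Wilson interval 23.2 to 37.8%), against 18.6% of all sites, and each of the 45 had a core motif. Among the 64 sites with wild-type peaks in all 3 tissues, 15 (23.4%, 14.7 to 35.1%) were missing from mutant heart while listed in mutant brain and lung, against 36.7% of all. Mutant lists alone held 11 of the 150 sites (7.33%, 4.14 to 12.7%), against 13.1% of all. Each of the 11 was in 1 list, their pileups ran from 8 to 22, and 3 of them had a core motif. The highest were Cacna1c sites 14 and 9, with 22 and 18 in mutant lung, and Kcnj2 site 2, with 16 in mutant brain.

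Wild-type brain and lung peaks with no heart peak of either genotype were found at 23 of the 139 wild-type sites, at 17 genes (16.5%, 11.3 to 23.6%), against 21.3% of all wild-type sites, and 21 of them had a core motif. By brain pileup the leading ones, as wild type and mutant, were Myl7 site 1, with 64 and 82 in brain and 101 and 65 in lung, Ryr2 site 1, with 56 and 36 and then 81 and 35, and Cacna1c site 3, with 56 and 94 and then 26 and 35. Ryr2 site 3 and Actn2 site 2 followed at 49 and 46 in wild-type brain. All 5 exceeded the median pileup of the wild-type brain list, 40. No mutant peak in any list was found at 6 sites with wild-type peaks in at least 2 tissues (4.32% of the 139, 1.99 to 9.10%), against 6.24% of all wild-type sites. Of these, Pln site 1 was the strongest, with 39 in brain and 93 in lung, followed by Ryr2 site 4 with 17 in heart and 65 in lung. The other 4 lay at Casq2, Tnni3 and Atp2a2, with 2 at Atp2a2, and had at most 34.

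By gene, the heart was the tissue in which most genes had fewer peaks in the mutant. Of 33 genes with a wild-type heart peak, 21 had fewer mutant peaks (63.6%), against 62.9% of protein-coding genes, and 2, Myl4 and Myocd, had more (6.06%), against 2.35%. In lung the numbers were 19 of 33 (57.6%), against 58.9%, and 2, Cacna1c and Ldb3 (6.06%), against 7.63%. In brain 9 of 33 had fewer (27.3%), against 21.6%, and 11 had more (33.3%), against 36.3%. These shares are near those of all genes. Among the 36 other cardiac genes, 24 of 32 had fewer heart peaks in the mutant and 0 had more. In lung the numbers were 16 and 3 of 30, and in brain 7 and 7 of 32. More peaks in the mutant in at least 1 tissue and fewer in another were found at 14 of the 37 genes (37.8%, 24.1 to 53.9%), against 26.6% of protein-coding genes.

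The heart peaks of 5 of 33 genes were all missing from the mutant (15.2%, 6.65 to 30.9%), against 25.6% of protein-coding genes with a wild-type heart peak and 11 of 32 other cardiac genes. These were Atp2a2, the calcium pump of the sarcoplasmic reticulum, Casq2, the calcium store protein calsequestrin, Actc1, Tbx5 and Isl1, and each had 1 wild-type heart peak. At all 5 the wild-type heart pileup was between 9 and 33.

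In what follows, paired pileups give the wild type and then the mutant. The genes of the thick filament had 28 sites. All 18 of their wild-type brain sites were retained (82.4 to 100%), with 12 of 17 in heart (70.6%, 46.9 to 86.7%) and 20 of 26 in lung (76.9%, 57.9 to 89.0%), compared with 81.3%, 50.7% and 66.9% of sites elsewhere for brain, heart and lung. Myh6 and Myh7, the paired alpha and beta myosin heavy chain genes, had few sites. Myh7 had no heart peak. Its site 1 had 32 in mutant brain and 29 in wild-type lung, and its site 2 had 26 in mutant brain and 21 and 31 in lung.

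Myl3 held the site with the highest pileup of the 37 genes. Site 5, 15.4 kb from the nearest Myl3 start, had pileups of 203 and 432 for brain, 78 and 91 for heart, and 387 and 418 for lung. The mutant pileup, which is not scaled by the added HEK293T chromatin, was higher in each tissue. The centred log2 difference was 0.88 for brain (counting interval 0.64 to 1.13), 0.33 for heart (-0.12 to 0.78) and 0.57 for lung (0.37 to 0.77). In Myl2, site 1, 11.9 kb upstream, was listed in all 6 libraries, with 163 and 106 for brain, 50 and 49 for heart, and 242 and 161 for lung. Site 2, next to it at 9.70 kb upstream, had 103 and 34 in brain, 29 and no mutant peak in heart, and 159 and 39 in lung. The neighbouring pair thus differed, with site 2 at -1.81 in brain (-2.41 to -1.24) and -1.57 in lung (-2.11 to -1.06) on the centred log2 scale and site 1 at -0.83 and -0.13. Site 6, just past the 3′ end of Myl2, had 77 and 63, 57 and 18, and 157 and 82, and its heart value of -1.56 (-2.41 to -0.77) was the lowest of the shared heart sites. Mybpc3, cardiac myosin-binding protein C, had 2 strong sites with heart pileups of 60 and 62 and of 62 and 77. The atrial light chain gene Myl4 had a site in an intron with 114 and 60 for brain, 35 and 45 for heart, and 250 and 237 for lung. Its centred value was -1.13 in brain (-1.61 to -0.67) and 0.38 in lung (0.12 to 0.64). In heart it was 0.47 (-0.20 to 1.15), an interval that includes 0.

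The thin filament genes had 23 sites. The mutant retained 16 of 18 brain sites (67.2 to 96.9%) and 8 of 14 heart sites (57.1%, 32.6 to 78.6%). It retained 17 of 21 lung sites (60.0 to 92.3%). Sites elsewhere were retained at 81.3% (brain), 50.7% (heart) and 66.9% (lung), and each interval includes the share of its tissue. The Tpm1 promoter was the strongest promoter site. Its summit lay 95 bp from an annotated start of this tropomyosin gene, with 214 and 340 for brain, 56 and 61 for heart, and 404 and 356 for lung. Another 2 sites of Tpm1 with heart pileups of 21 and 15 had no mutant heart peak, so that the gene's heart count was 3 and 1. Tnni3 site 3, in the adjacent Tnnt1, which encodes slow skeletal troponin T, had 75 and 67 for brain, 44 and 69 for heart, and 247 and 143 for lung, and Tnni3 site 4 had 51 and 37, 36 and 36, and 199 and 66. The centred value in lung was -0.33 (-0.64 to -0.026) at site 3 and -1.13 (-1.56 to -0.72) at site 4. In heart it was 0.76 (0.19 to 1.34) at site 3 and 0.11 (-0.60 to 0.81) at site 4, where the interval includes 0. Tnnt2 site 1, 7.25 kb upstream of the cardiac troponin T gene and in an intron of Lad1, had 32 in wild-type brain and 29 in wild-type heart with no mutant peak in either, and 103 and 23 in lung. Actc1, cardiac actin, had only the low heart peak named above.

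The Z-disc, titin, desmin and creatine kinase genes had 23 sites, with 14 of 15 retained in brain (70.2 to 98.8%), 10 of 14 in heart (71.4%, 45.4 to 88.3%) and 14 of 17 in lung (59.0 to 93.8%). Sites elsewhere were retained at 81.3%, 50.7% and 66.9% for brain, heart and lung, and each interval includes its share. Ttn, which encodes the elastic giant of the sarcomere, had 7 sites. Its promoter site, 236 bp from a start, had 35 and 29 for brain, 34 and 26 for heart, and 93 and 38 for lung. Ttn site 4 had 102 and 62, 35 and 16, and 182 and 120, with centred values of -0.93, -1.02 and -0.14. Ttn site 5 had 76 and 44 in brain, 30 and no mutant peak in heart, and 133 and 75 in lung. Ldb3 was the gene whose wild-type heart count, 5, most exceeded brain and lung, 2 each. Its site 2 was strong everywhere, with 149 and 261, 65 and 43, and 286 and 276. Desmin's upstream site and a site 5.46 kb from a start of Ckm, the muscle creatine kinase, were listed in all 6 libraries, and the Actn2 promoter site was listed in brain, at 29 and 44, and heart, at 22 and 13, but not in lung.

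**Figure D4:**
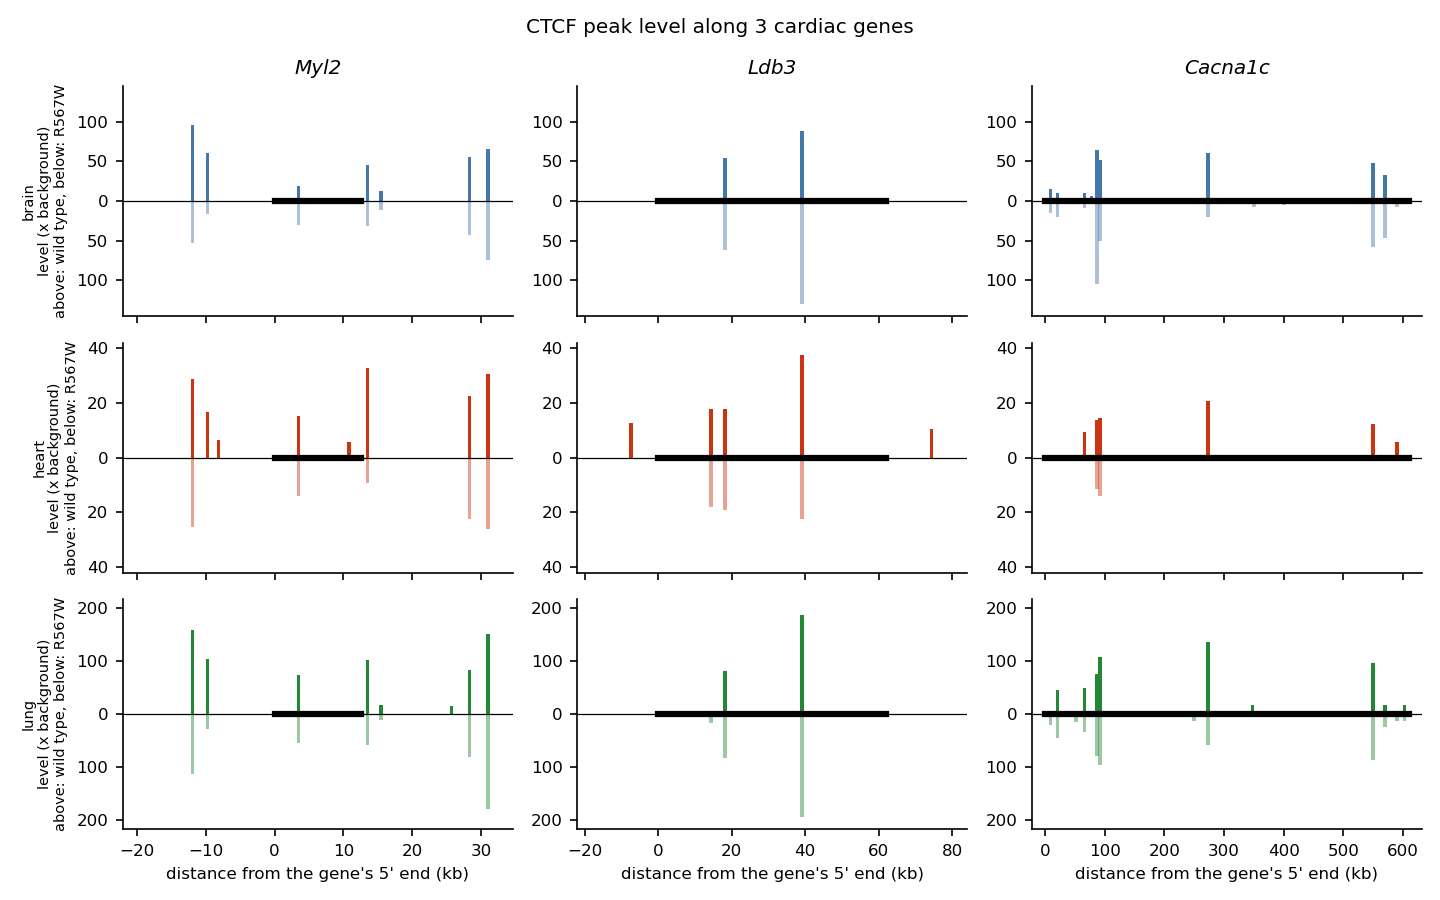
Level of each CTCF site (vertical axis, pileup as a multiple of the genome background) against its distance from the 5′ end of the gene (horizontal axis, kb) at Myl2, Ldb3 and Cacna1c in brain, heart and lung. Wild-type bars point up, R567W bars point down, the thick line is the gene body, and heart shows upward bars at each gene without a downward bar.

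In the plot of the 3 loci, most bars of brain and lung have a counterpart in the other genotype, though the tallest bar of Myl2 is site 1 in the wild type and site 10 in the mutant. Heart lacks the downward bar at 3 sites of Myl2, 2 of Ldb3 and 4 of Cacna1c. Levels in heart were lower than in brain and lung, as in the genome. The highest heart level among the 3 genes was that of Ldb3 site 2.

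The natriuretic peptide genes had 2 sites, both at Nppa in the neighbouring Clcn6. Site 1 was listed in all libraries, with 34 and 35 for brain, 25 and 30 for heart, and 49 and 50 for lung. Its heart level was 1.10 above lung on the centred log2 scale.

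The calcium handling genes had 33 sites and the lowest retained share in heart, 5 of 12 (41.7%, 19.3 to 68%), with 16 of 21 in brain (76.2%, 54.9 to 89.4%) and 17 of 25 in lung (68%, 48.4 to 82.8%). These intervals overlap those of the other roles and include the shares of sites elsewhere, 50.7% in heart, 81.3% in brain and 66.9% in lung. Cacna1c had 7 wild-type and 3 mutant heart peaks, but 10 and 11 brain peaks and 10 and 12 lung peaks. Site 8, in an intron 273 kb from the 5′ end, had 102 and 40 in brain, 36 and no mutant peak in heart, and 208 and 83 in lung. Site 4 had 82 and 118 in brain, 21 and no mutant peak in heart, and 146 and 124 in lung. Both were missing from mutant heart, yet in brain the centred value was -1.56 (-2.12 to -1.02) at site 8 and 0.32 (-0.10 to 0.74) at site 4, where the interval includes 0. At the promoter site of Cacna1c, site 11, brain had 109 and 210, heart 24 and 22, and lung 116 and 113.

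Ryr2, the calcium release channel, had a promoter site 38 bp before a start with 119 and 216 for brain, 36 and 39 for heart, and 188 and 162 for lung. It was in all 6 lists, and its centred value was 0.65 in brain (0.32 to 0.99) and 0.22 in heart. The Atp2a2 promoter site had 45 and 26 in brain, 16 and no mutant peak in heart, and 25 and 12 in lung, and the gene went from 4 to 2 peaks in brain and from 5 to 2 in lung. Casq2 site 1, 4.36 kb before the gene, had the lowest centred ratio of mutant to wild type in lung among the shared sites of the 37 genes, at -2.84 (-3.68 to -2.09). It had 80 and 21 in brain, 33 and no mutant peak in heart, and 157 and 16 in lung. No core motif was called there. Pln, the inhibitor of the calcium pump, kept 2 sites in all libraries and had no mutant peak at site 1.

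The potassium channel and gap junction genes had 11 sites, and all 5 brain sites (56.6 to 100%), 5 of 6 heart sites (43.6 to 97.0%) and 7 of 9 lung sites (45.3 to 93.7%) were retained. These wide intervals include the 81.3%, 50.7% and 66.9% of sites elsewhere for brain, heart and lung. Kcnj2, an inward rectifier channel, had the site with the highest mutant level relative to the wild type in heart. Its site 1, 1.33 kb before the start, had 74 and 106 for brain, 18 and 43 for heart, and 76 and 82 for lung, and the centred log2 difference in heart was 1.36 (0.54 to 2.24). Gja1, connexin 43, had a pair of upstream sites that differed. Site 1 had 84 and 24 in brain, 25 and no mutant peak in heart, and 149 and 71 in lung, and site 2 had 68 and 95, 34 and 40, and 114 and 94. Gja5, connexin 40, kept its 3 wild-type heart sites.

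The transcription factor genes had 30 sites, with 15 of 23 retained in brain (65.2%, 44.9 to 81.2%), 9 of 15 in heart (35.7 to 80.2%) and 11 of 16 in lung (68.8%, 44.4 to 85.8%). Their brain share was the lowest of the 7 roles, and its interval ends just below the 81.3% of sites elsewhere. The heart and lung intervals include 50.7% and 66.9%. Mef2c, which is also a neuronal gene, had 6 wild-type and 4 mutant brain peaks, and the 3 brain sites without a mutant peak had pileups of 11, 17 and 15. Gata4 site 3, 17.6 kb from the nearest Gata4 start and past the gene's 3′ end, had 76 and 16 for brain, 38 and 17 for heart, and 166 and 57 for lung. On the centred scale it was the lowest brain site of the 37 genes, at -2.46 (-3.33 to -1.67). Its heart value was -1.05 (-1.97 to -0.19) and its lung value -1.08 (-1.54 to -0.64). Gata4 site 6 had 63 and 45 for brain, 35 and 33 for heart, and 121 and 52 for lung, with centred values of -0.69 in brain (-1.28 to -0.12) and -0.76 in lung (-1.26 to -0.28). Gata4 site 4 had 36 and 34 in heart. Nkx2-5 had only a mutant brain peak of 10, Isl1 a site of 12 in wild-type heart, and Irx4 no heart peak. Hand1 had 1 site in all libraries, with heart pileups of 40 and 53. Hand2 had 3 wild-type and 1 mutant heart peaks. Tbx20 had 2 sites and kept both heart peaks, at 21 and 23 and at 18 and 18. Tbx5 had a wild-type heart peak of 13, and Myocd had 31 and 30 at site 1 and a mutant heart peak of 21 at site 2.

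Starts are those of transcripts in the basic annotation. Of the 9 genes with a peak within 1 kb of such a start, Tpm1, Ttn, Ryr2 and Cacna1c had it in all 6 lists. Actn2 had it in brain and heart, Atp2a2 in all but mutant heart, Kcnj2 in mutant brain, Gata4 in wild-type heart and Myocd in wild-type brain. The last 3 had pileups of 16, 11 and 12. Sites within 1 kb of the outermost 5′ end of a gene, where the basic annotation has no start, were Tnni3 site 5, Ckm site 2 and Nkx2-5 site 1.

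Among sites listed in both genotypes of a tissue, the mutant to wild-type ratio of level was centred on the median of all shared sites, which was -0.038, -0.25 and -0.36 on the log2 scale for brain, heart and lung. The cardiac sites had a centred median of 0.0048 in brain (order-statistic 95% interval -0.14 to 0.15, n = 86), of 0.069 in heart (-0.13 to 0.23, n = 50) and of 0.12 in lung (-0.11 to 0.21, n = 87). Each interval includes 0, the median of the genome. Single sites differed more than their medians. Beyond the exact counting interval, the mutant was lower at 20 of 86 brain sites (23.3%), against 19.8% of all, at 5 of 50 heart sites (10%), against 6.24%, and at 21 of 87 lung sites (24.1%), against 23.1%. It was higher at 16 (18.6%), against 20.1%, at 3 (6.00%), against 4.33%, and at 19 (21.8%), against 19.2%. Such shares are close to the background, and no library was repeated, so the spread between libraries does not enter these intervals.

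The same site tended to move the same way in brain and lung. Over the 76 cardiac sites shared between genotypes in both tissues, Pearson's r of the centred log2 ratios was 0.73 and Spearman's rho 0.64, given as a description over sites. Over all 23528 such sites the values were 0.67 and 0.65. The libraries of brain and lung were separate, but the points share their sequence, mappability and peak caller. For brain against heart, r was 0.17 over 46 cardiac sites and 0.46 over all, and for heart against lung 0.34 and 0.52. Spearman's rho was 0.015 and 0.42 for brain against heart, and 0.33 and 0.47 for heart against lung.

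**Figure D5:**
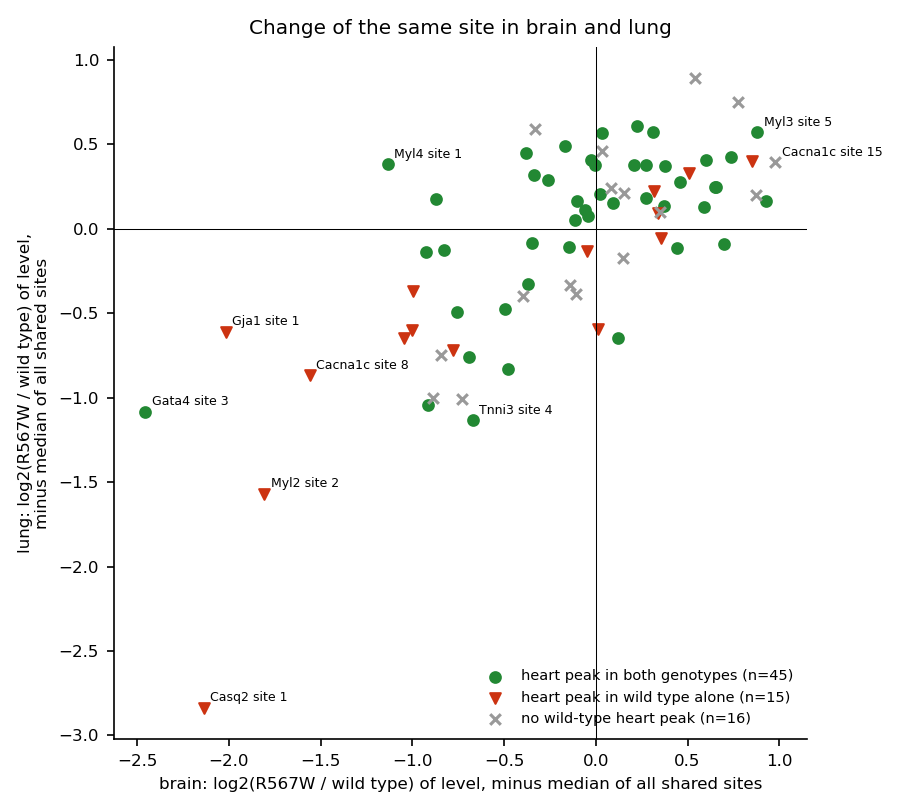
Centred log2 ratio of mutant to wild-type level in brain (horizontal axis) and lung (vertical axis) at 76 sites of the cardiac genes. Green circles have heart peaks in both genotypes, red triangles in the wild type alone and grey crosses have no wild-type heart peak, and the lowest sites are those of Casq2, Myl2, Gata4, Cacna1c and Gja1.

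The mutant was lower beyond the interval in both brain and lung at 13 of these 76 sites (17.1%, 10.3 to 27.1%), against 13.1% of all, and higher in both at 7 (9.21%, 4.53 to 17.8%), against 12.6% of all. The 13 sites lay at 11 genes, and 11 of them had a wild-type heart peak, which was missing from mutant heart at 6. The 6 were Casq2 site 1, Myl2 site 2, Cacna1c site 8, Gja1 site 1, Tnni3 site 5 and Myl3 site 1. Among all sites of the series listed in both genotypes of brain and lung and in wild-type heart, 7190 were missing from mutant heart and 10442 were retained. At the cardiac genes these numbers were 15 and 45. The 7 higher sites included Myl3 site 5, Tpm1 site 2, Ldb3 site 2 and Cacna1c site 11, and of the 5 with a wild-type heart peak 1, Myl7 site 3, was missing from mutant heart. An upstream motif was called at 3 of the 12 lower and 2 of the 6 higher sites with a core motif, against 26.2% of all sites with a core motif. The 3 lower calls, at Gata4 site 3, Myl2 site 2 and Cacna1c site 8, had at most 1 mismatch. The 2 higher calls, at Ldb3 site 2 and Myl3 site 5, had 2 mismatches. Over the series, 5371 of 47589 sites with a core motif had a call with at most 1 mismatch. The difference was not tested.

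The 15 sites missing from mutant heart alone had lower medians in the other tissues than the sites retained there. Their median centred ratio was -0.78 in brain (range -2.14 to 0.85) and -0.59 in lung (-2.84 to 0.40), and 9 and 11 of the 15 were below 0, beside 24 and 15 of the 45 sites retained in heart. The 45 sites retained in heart had medians of -0.029 (-2.46 to 0.93) and 0.16 (-1.13 to 0.61). The ranges overlapped. Over all sites of the series the medians were -0.38 and -0.45 for 7190 sites missing from mutant heart alone, of which 5008 and 5346 were below 0, and 0.25 and 0.24 for 10442 retained. Their wild-type heart pileup differed as well, with a median of 21 (15 to 39) at the 15 sites and 36 (18 to 78) at the 45, and its part in the result was not tested.

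Sites with and without an upstream motif were compared among the sites with a core motif. With the motif, 23 of 27 brain sites (85.2%, 67.5 to 94.1%), 16 of 21 heart sites (76.2%, 54.9 to 89.4%) and 24 of 29 lung sites (82.8%, 65.5 to 92.4%) were retained. Without it the numbers were 59 of 67 (88.1%), 33 of 52 (63.5%) and 58 of 77 (75.3%). The intervals overlap in each tissue at the cardiac genes. Over all sites the retained share was lower with the motif, at 78.1% against 85.1% for brain, 45.7% against 55.2% for heart and 64.1% against 72.9% for lung. Where both genotypes were listed, the median centred ratio at the cardiac sites with the motif was -0.058, -0.13 and 0.021 for brain, heart and lung, and without it 0.033, 0.11 and 0.19. With at most 1 mismatch allowed, 5 of 10 heart sites with the motif and 44 of 63 without it were retained, so the direction in heart turned with the call. Over all sites this call gave 37.1% with the motif and 54.3% without it in heart.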

How the data were processed

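CTCF ChIP-seq peak lists of 6 libraries were used, and the 6 input libraries were not analysed here. Per the labels and the study's methods, reads went through Trim Galore and then Bowtie2, with mouse (mm10) and human sequences joined as the target, after which the authors ran MACS2 at default options on each library. Fold enrichment, as deposited, is a ratio (pileup plus 1 over local background plus 1). As deposited, p-values and q-values stand as −log10 values. The deposited score, derived from the q-value, was not used. The deposited column 10 gives the summit position. Spike-in factors do not enter a list, so ratios between genotypes were centred on the median of all shared sites.

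Groups came from the labels. Lines of the same region were counted as 1 region, at the summit of highest fold enrichment. Whole-number pileups and local backgrounds were solved from fold enrichment and p-value together, and 100% of the lines of each list were solved. Tested on simulated data, 100% of 20000 pileups were recovered. Local background was raised in the wild-type lung list (median 2.38 times the genome background, 1.04 to 1.18 times in the others), which lowers fold enrichment, so pileups were used. At regions of the cardiac genes this median was 2.89 in wild-type lung and 1.11 to 1.23 in the others. Pileups do not change which sites were listed. The part of this background in the lung shares, lung retention and the heart-alone sites was not tested. Genes came from the basic GENCODE release M21 on GRCm38. All 37 genes and all 36 others were found. The core motif matrix of 19 columns was learned from 1962 of the 2000 wild-type brain peaks of highest pileup and called at p of 0.0001. Beside windows were centred 1100 bp from the summit.

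The members and lists were chosen with earlier results of these data known. Sites were named by a rule: promoter peaks, heart-alone sites, sites missing from mutant heart alone, sites without a mutant peak, sites of mutant lists alone, brain and lung sites without heart, and sites in all lists, each ordered by pileup. Other sites, among them Gata4 site 3, Kcnj2 site 1, Myl2 site 6, Myl4 site 1, Nppa site 1 and those picked for a ratio, were chosen after their values were seen. Shares have Wilson 95% intervals, ratios of pileups exact Clopper-Pearson intervals and medians order-statistic intervals. Fragments without molecular identifiers are not independent molecules, so intervals cover counting error only. Other settings tried were −log10 q of 5 or more, lists of equal length, summits within 200 bp, windows of 0 and 50 kb, any summit line, leaving out Cacna1c, Myl2 and Gja5, fold enrichment in place of pileup, no centring and a stricter upstream motif call. Weighting by pileup, other sites near protein-coding genes and leaving out a tissue were added after seeing the data. Computations ran in Python 3.11.15 with pysam 0.24.0, scipy 1.17.1, numpy 2.4.6 and pandas 2.3.3, and matplotlib 3.10.9 drew the figures.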

Additional observations from a re-analysis of the deposited data

Results flagged for a closer look

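On the log2 scale, peak number in the mutant relative to the wild type was 0.041 in brain at the cardiac genes, but -0.59 in heart and -0.27 in lung. The direction differed between tissues. Each tissue had a single library of each genotype, and the difference was not tested.

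In 14 of the 37 genes (37.8%, 24.1 to 53.9%) the mutant had more peaks in at least 1 tissue and fewer in another, against 26.6% of protein-coding genes. The difference between the tissues was 6 peaks at Cacna1c, which gained 2 in lung and had 4 fewer in heart, and 4 at Gja5. It was 3 at Myh7, Myl3, Tpm1, Ldb3 and Myocd. It was 2 at Myh6, Mybpc3, Actn2, Des, Ckm, Gata4 and Tbx5. Heart had fewer peaks in the mutant at 7 of the 14. These differences were not tested either, and many rest on peaks near the lowest listed pileup.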

How the results depend on the processing

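Of 80 alternative values, 69 stayed within the interval or spread of the value reported, 9 moved beyond it, and 2, a mean log2 ratio and a difference of shares, moved to the opposite sign. The centred medians of all 3 tissues, whose intervals include 0, also took either sign: in brain 6 of 9 settings gave values below 0, in heart fold enrichment in place of pileup gave -0.099, and heart and lung were below 0 without centring. Cutting all lists to the length of the shortest moved most: the retained shares for brain, heart and lung became 70.3%, 87% and 82.1%, the mean log2 ratio of peak number 0.10, the share of wild-type sites with a heart peak became 83.6% (71.7 to 91.1%), beside 75.3% of all sites, and the centred ratio in brain became -0.17. Other sites then had retained shares of 78.1%, 71.3% and 80.0%, and the mean difference was 3.33 points. Without centring, the median ratio was -0.19 in heart and -0.24 in lung. With at most 1 mismatch, the retained share with the upstream motif less that without it was -19.8 points in heart, where it had been 12.7. It was -16.5 in brain and 3.08 in lung. The cause of these changes was not tested. With other sites weighted to the same pileups the mean difference was 5.39 points, and against sites near protein-coding genes 6.65. Leaving out a tissue at a time gave 5.55 to 10.4 points for the mean difference of retained share and -0.43 to -0.11 for the mean log2 ratio, which was nearest to 0, at -0.11, without heart and farthest, at -0.43, without brain. Depth limits what a missing peak can say, as no list held a pileup below 7. No paired analysis was possible because of single libraries within each tissue, but the exact tests over the 3 tissues paired the genotypes.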
